A study of Sus scrofa with 6 samples.

Results

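The natriuretic peptide system of the pig heart was examined as 9 genes chosen by name: the ligand genes NPPA, NPPB and NPPC, the processing and degrading enzymes CORIN, FURIN and MME, and the receptors NPR1, NPR2 and NPR3. Of these, 7 have a row in the deposited table of 13288 genes, and all 7 passed the filter on low values, which left 11029 genes for the test. NPPA and NPPC have no row of their own, by symbol or by gene identifier, and were not analysed here as separate genes. The tissue was ventricular myocardium of male Tibetan minipigs, taken 12 weeks after surgery, with 3 minipigs in the sham group and 3 in the DAC group. The sham group underwent thoracotomy without constriction, and in the DAC group the descending aorta was constricted, which loads the left ventricle with pressure. No transgene or drug treatment separates the groups, the labels do not say which ventricle was sampled, and the age of the minipigs is not given in the sources used here. Each library is 1 minipig, named sham replicates 1 to 3 and DAC replicates 4 to 6.

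Atrial natriuretic peptide (ANP, from NPPA) and brain natriuretic peptide (BNP, from NPPB) are hormones that heart muscle cells secrete when the chamber wall is stretched, and C-type natriuretic peptide (from NPPC) is made mainly by other cells such as endothelial cells. The peptides are made as precursors: corin, a protease on the surface of heart muscle cells, cuts pro-ANP, and furin, a protease of the secretory route, cuts proBNP. ANP and BNP act on NPR1 and C-type natriuretic peptide on NPR2, and both receptors are guanylyl cyclases that make cGMP, whereas NPR3 takes the peptides up for breakdown and neprilysin (from MME) degrades them outside the cell. In ventricular muscle, ANP and BNP transcripts are widely used as markers of load and heart failure.

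Expression is given as FPKM, the fragments of a gene scaled for transcript length and for the total of mapped fragments, so levels of different genes can be compared per length. A log2 fold change is the DAC mean minus the sham mean of log2(FPKM + 1), from limma's moderated test over all genes tested, with the standard error (SE) or the 95% interval. Genes with an unadjusted limma P under 0.05 are called differentially expressed genes (DEGs), the threshold used in the study. There were 939 DEGs, 8.51% of the genes tested, of which 358 were upregulated (3.25%) and 581 downregulated (5.27%). Scaling each sample to its median gave 429 upregulated and 479 downregulated DEGs, and leaving out mitochondrially encoded genes gave 500 and 407. No gene reached an adjusted P under 0.05 (Benjamini-Hochberg over all genes tested, smallest adjusted P = 0.106 from limma), so each DEG below stands at the unadjusted threshold only. The samples summed to 281377 to 308771 FPKM, and how many reads lie behind a value is unknown. Of the cardiomyocyte markers, 6 of 7 are listed (TTN has no row), with a summed level between 7609 and 8128 FPKM in the sham samples and between 7352 and 9511 FPKM in the DAC samples.

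Of the 7 measured genes, 1 was a DEG, against 8.51% of all genes tested. It was the row named NPPB, which was upregulated in the DAC group. The other 6 genes had a lower mean log2 level in the DAC group, against 53.4% of all genes tested, and none of the 6 passed the threshold. The direction did not hold in every setting for NPR2, at 0.0034 with mitochondrially encoded genes left out, or for NPR3, at 0.11 with sample weights, and both also turned positive with some single samples left out. The median log2 fold change of the 7 genes was -0.30, beside -0.016 over all genes tested. The groups did not overlap in 1 of the 7 genes, against 14.9% of all genes tested. None of the 7 had all DAC samples below all sham samples, as 8.91% of all genes tested did.

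The row named NPPB (ENSSSCG00000003431) spans 12760 bases of chromosome 6, from 71919495 to 71932254 on the minus strand in the susScr11 build. On the same assembly, RefSeq places NPPA at 71919557 to 71921345 and NPPB at 71930374 to 71931843, with 9028 bases between them. Both RefSeq genes therefore lie wholly inside this 1 row: it starts 62 bases before RefSeq NPPA and ends 411 bases after RefSeq NPPB. The sources used here do not say which exons or transcripts entered the value of the row. Reads from NPPA and from NPPB cannot be told apart in it, so its values are called those of the NPPB row and not of BNP alone. A later gene table used here pairs NPPA with an identifier of its own (ENSSSCG00000061442), which the deposited table does not use.

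**Figure D1:**
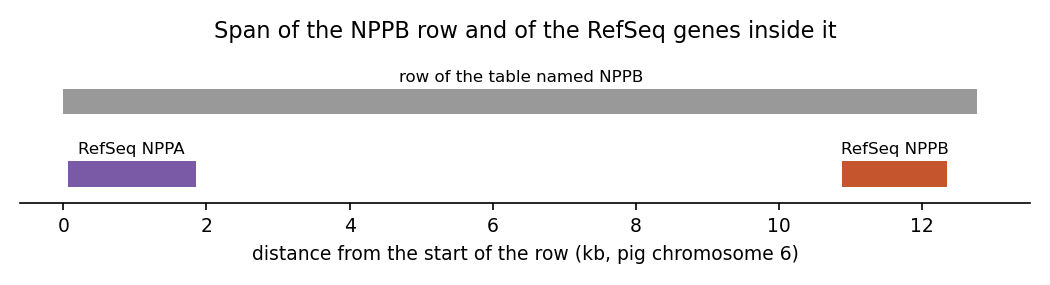
Span of the table's row named NPPB and of the 2 RefSeq genes inside it, in kilobases from the start of the row. The RefSeq genes NPPA (1789 bases) and NPPB (1470 bases) sit at opposite ends of the 12760 bases of the row.

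The NPPB row was at 15.5, 43.9 and 43.4 FPKM in sham replicates 1, 2 and 3. In DAC replicates 4, 5 and 6 it was at 80.6, 93.3 and 107 FPKM. All DAC samples lay above all sham samples, as in 6.01% of the genes tested, and the lowest DAC sample was 1.84 times the highest sham sample. The sham mean was 34.3 ± 16.2 FPKM and the DAC mean 93.5 ± 12.995 FPKM (SD, n = 3 each), a ratio of 2.73. On the log2 scale the difference was 1.55 (95% interval 0.66 to 2.44, adjusted P = 0.482 from limma). Among the 11029 genes tested this was the 7th largest positive log2 fold change and the 97th smallest unadjusted P.

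Sham replicate 1 was the low sample of its group for the NPPB row, at 15.5 FPKM against 43.4 FPKM or more in the other two. Without it the log2 fold change was 1.07 (adjusted P = 0.282 from limma). With any other sample left out the log2 fold change was between 1.45 and 1.79, and the row remained an upregulated DEG. The row was at 2.04, 5.40 and 5.39 FPKM per 1000 FPKM of summed cardiomyocyte markers in the sham samples and at 8.48, 12.7 and 12.5 in the DAC samples. The groups did not overlap in this ratio (exact two-sided permutation P = 0.1, the smallest that 3 minipigs against 3 allow). This ratio was chosen after the values were seen. The summed markers spanned only 7352 to 9511 FPKM, too little to close the gap between the groups, so the NPPB row itself set this outcome. Of the 8 fibroblast markers, 4 were upregulated DEGs, against 3.25% of all genes tested. These were COL1A1, COL1A2, COL3A1 and LUM. The other 4 were not DEGs, with log2 fold changes of -0.012 for DCN, -0.022 for TCF21, 0.080 for DPT and 0.24 for PDGFRA. The summed level of all 8 was between 532 and 617 FPKM in the sham samples and between 743 and 847 in the DAC samples. In the other marker lists, 1 of 4 conduction (ETV1), 1 of 4 endocardial (CDH11) and 1 of 7 smooth muscle genes (CNN1) tested were upregulated DEGs. Downregulated were 1 of 6 cardiomyocyte (RYR2) and 1 of 4 leukocyte genes (CD163). The shares over all genes tested were 3.25% upregulated and 5.27% downregulated. The part of the marker genes in the values of the natriuretic peptide genes was not tested. In bulk tissue fewer cells of a type and less RNA per cell cannot be told apart.

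**Figure D2:**
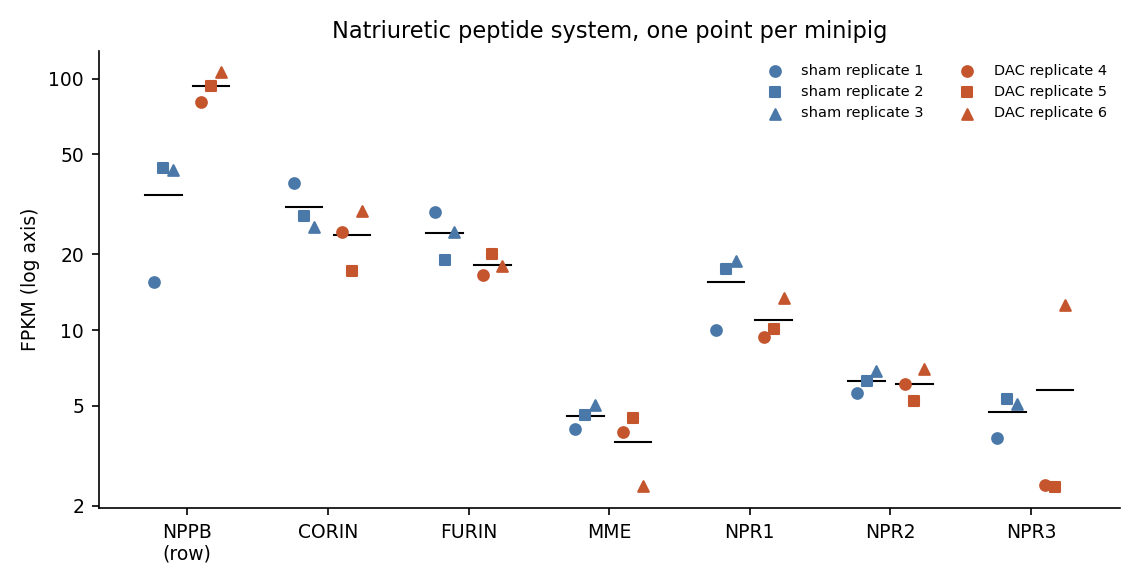
FPKM (log axis) of the 7 measured genes, 1 point per minipig with a bar at the group mean, sham in blue and DAC in orange. The DAC points of the NPPB row (80.6 to 107 FPKM) stand above its sham points (15.5 to 43.9 FPKM), while the groups overlap in every other gene.

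The enzymes that act on the peptides were examined next. CORIN (ENSSSCG00000008813, chromosome 8 from 37530815 to 37809761), the convertase of pro-ANP, was at 38.6, 28.5 and 25.7 FPKM in the sham samples and at 24.6, 17.2 and 29.7 FPKM in DAC replicates 4, 5 and 6. DAC replicate 6 lay above 2 of the 3 sham samples, and the groups overlapped. The log2 fold change of CORIN was -0.38 (95% interval -0.91 to 0.16, adjusted P = 0.662 from limma). Without DAC replicate 5, its lowest sample, the log2 fold change was -0.17, and without DAC replicate 6 it was -0.55. The row of CORIN overlaps that of ATP10D by 2261 bases and that of NFXL1 by 11887 bases, and how shared reads were assigned is not given in the sources used here.

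FURIN (ENSSSCG00000001817, chromosome 7 from 53460017 to 53472790), the protease that cuts proBNP, was at 29.4, 19.1 and 24.5 FPKM in the sham samples. In the DAC samples it was at 16.5, 20.1 and 17.9 FPKM. Only DAC replicate 5 lay above the lowest sham sample, so the groups overlapped by 1 sample. The log2 fold change of FURIN was -0.38 (95% interval -0.78 to 0.010, adjusted P = 0.592 from limma), and the interval just included 0. FURIN was a downregulated DEG without sham replicate 2 (log2 fold change -0.54, adjusted P = 0.442 from limma) and with sample weights (log2 fold change -0.41, adjusted P = 0.560 from limma).

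MME (ENSSSCG00000011723, chromosome 13 from 95019081 to 95126045), which encodes the peptide-degrading enzyme neprilysin, was at 4.05, 4.61 and 5.03 FPKM in the sham samples. It was at 3.94, 4.46 and 2.39 FPKM in the DAC samples. The low value was that of DAC replicate 6, while DAC replicate 4 lay just below the sham range and DAC replicate 5 inside it. MME had a log2 fold change of -0.30 (95% interval -0.75 to 0.15, adjusted P = 0.679 from limma), and it was -0.095 without DAC replicate 6.

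The receptors had 3 different patterns over the samples. NPR1 (ENSSSCG00000006572, chromosome 4 from 95957228 to 95973430), the guanylyl cyclase receptor of ANP and BNP, was at 10.05, 17.5 and 18.8 FPKM in the sham samples and at 9.34, 10.1 and 13.4 FPKM in the DAC samples. Sham replicate 1 lay among the DAC samples, and the other 2 sham samples lay above all of them. NPR1 had a log2 fold change of -0.43 (95% interval -1.01 to 0.14, adjusted P = 0.647 from limma). Without sham replicate 1 it was -0.70, and NPR1 was then a downregulated DEG (adjusted P = 0.691 from limma).

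Endothelial markers were set beside NPR1, since endothelial cells express it too. The summed level of the 7 endothelial markers was 134 FPKM in sham replicate 1 and 183 and 178 FPKM in the other sham samples, and it was 135, 118 and 176 FPKM in the DAC samples. Of the 7, VWF was a downregulated and KDR an upregulated DEG, against 5.27% and 3.25% of all genes tested. Pearson's r of NPR1 over the 6 minipigs ranged from -0.24 with KDR to 0.96 with PECAM1, a cell contact protein of endothelial cells, and these r values describe 6 libraries that differ in group. NPR1 was at 7.50, 9.58 and 10.6 FPKM per 100 FPKM of summed endothelial markers in the sham samples and at 6.94, 8.56 and 7.61 in the DAC samples, a ratio that was also chosen after the values were seen and whose groups overlapped (exact two-sided permutation P = 0.3). The part of endothelial markers in the NPR1 values was not tested.

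NPR2 (ENSSSCG00000005322, chromosome 1 from 236508998 to 236529154), the receptor of C-type natriuretic peptide, was at 5.62, 6.27 and 6.89 FPKM in the sham samples. It was at 6.10, 5.21 and 7.001 FPKM in the DAC samples, and the ranges of the groups nearly coincided. NPR2 had a log2 fold change of -0.035, with a 95% interval of -0.35 to 0.28 (adjusted P = 0.954 from limma). The RefSeq gene SPAG8 shares 2496 bases with the row of NPR2, and which reads were counted there is not given in the sources used here.

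NPR3 (ENSSSCG00000036201, chromosome 16 from 18842039 to 18929813), the clearance receptor, was at 3.73, 5.33 and 5.08 FPKM in the sham samples. It was at 2.43 and 2.37 FPKM in DAC replicates 4 and 5, below all sham samples, and at 12.5 FPKM in DAC replicate 6, above all of them. With all 6 samples the log2 fold change was -0.073, and its 95% interval was the widest of the 7 genes, from -1.29 to 1.14 (adjusted P = 0.977 from limma). Without DAC replicate 6 the log2 fold change was -0.74 and NPR3 was a downregulated DEG (adjusted P = 0.409 from limma). On the FPKM scale its mean was higher in the DAC group, 5.78 ± 5.85 FPKM against 4.71 ± 0.864 FPKM (SD, n = 3 each), through that 1 sample. The coefficient of variation of NPR3 was 18.3% in the sham group and 101% in the DAC group. The log2 ratio of NPR3 to NPR1, which sets the clearance receptor against the signalling receptor within a sample, was -1.22, -1.55 and -1.71 in the sham samples. It was -1.59, -1.72 and -0.091 in the DAC samples, with an exact two-sided permutation P of 0.9 between the groups.

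**Figure D3:**
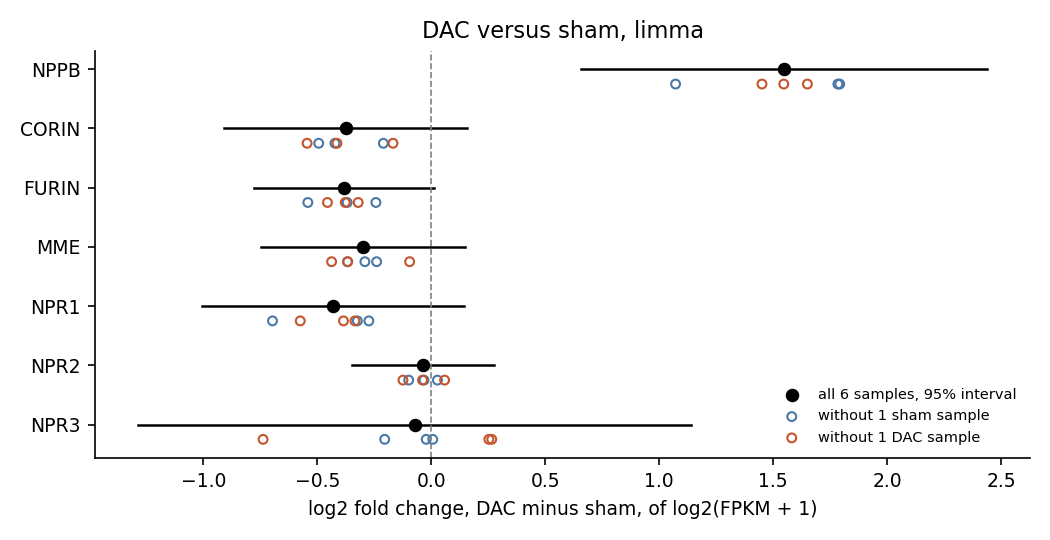
Log2 fold change of each measured gene between the DAC and sham groups, with the 95% interval from limma (black), and the value with 1 sham (blue) or 1 DAC (orange) sample left out. The interval of the NPPB row, 0.66 to 2.44, lies above 0, the intervals of the other genes include 0, and NPR3 spreads from -0.74 to 0.27 as single samples are left out.

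DAC replicate 6, in which NPR3 was high and MME low, also had the highest SLN and MYL4, 2 of the 4 atrial markers with a row. SLN, a regulator of the calcium pump that is abundant in atrial muscle, was at 9.83 FPKM in DAC replicate 6 and between 0.278 and 1.44 FPKM in the other 5 samples. MYL4, the atrial essential myosin light chain, was at 17.6 FPKM in DAC replicate 6, at 9.22 FPKM in DAC replicate 4 and between 0.780 and 3.79 FPKM in the other samples. The other two atrial markers were second lowest in DAC replicate 6. KCNJ3, a potassium channel subunit, was at 21.7 FPKM there and between 19.9 and 26.5 FPKM in the other samples, and NR2F1, a transcription factor of atrial identity, was at 0.319 FPKM there and between 0.299 and 0.972 FPKM in the others. Over the whole list, 4 of 9 atrial markers have a row, and their summed level was between 25.1 and 28.2 FPKM in the sham samples and 35.6, 24.7 and 49.4 FPKM in DAC replicates 4, 5 and 6. KCNJ3 made up the largest part of the sum in every sample. The defining atrial markers MYL7, MYBPHL, BMP10 and KCNA5 have no row in the table. The part of these markers in the NPR3 value of DAC replicate 6 was not tested. The log2 fold change of the NPPB row was 1.45 without DAC replicate 6.

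**Figure D4:**
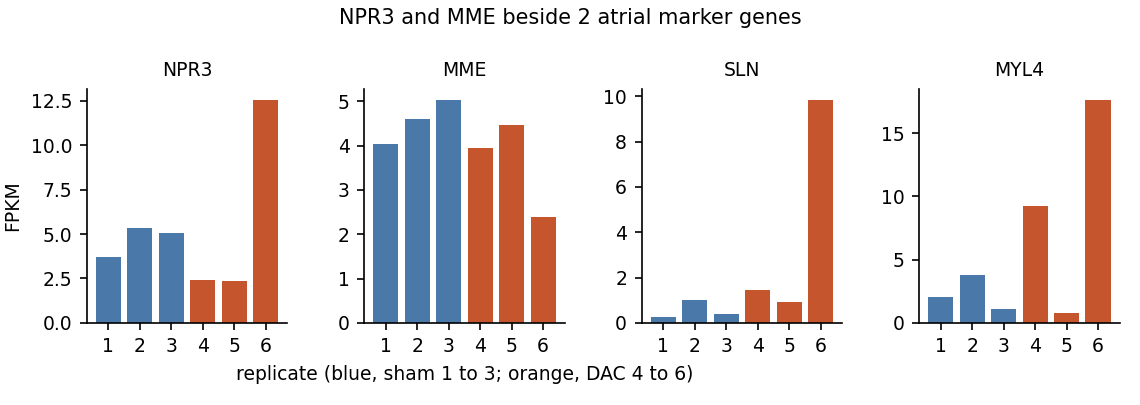
FPKM of NPR3, MME and the atrial markers SLN and MYL4 in each minipig, sham replicates 1 to 3 in blue and DAC replicates 4 to 6 in orange, each panel with its own axis from 0. DAC replicate 6 has the highest NPR3 (12.5 FPKM), SLN (9.83 FPKM) and MYL4 (17.6 FPKM) and the lowest MME (2.39 FPKM). The atrial markers KCNJ3 (21.7 FPKM) and NR2F1 (0.319 FPKM), not drawn, were second lowest in DAC replicate 6.

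Per length, the order of the mean levels was the same in both groups: the NPPB row, CORIN, FURIN, NPR1, NPR2, NPR3 and MME. Which exons or transcripts entered the NPPB row is not known, so its place is that of the row and not of BNP alone. In the sham group the ranges of the NPPB row and CORIN overlapped, as did those of CORIN and FURIN and those of NPR3 and MME. Within single samples, CORIN was above FURIN in every sham sample, at 38.6, 28.5 and 25.7 against 29.4, 19.1 and 24.5 FPKM. The NPPB row was below CORIN, and NPR3 below MME, only in sham replicate 1 of that group. In the DAC group the NPPB row stood apart from CORIN, with 80.6 FPKM as its lowest sample against 29.7 FPKM as the highest of CORIN. The DAC ranges of CORIN and FURIN overlapped, as did those of NPR2 and NPR3 and those of NPR3 and MME. NPR3 had a higher DAC mean than MME only through DAC replicate 6: in DAC replicates 4 and 5 it was at 2.43 and 2.37 FPKM, below MME at 3.94 and 4.46 FPKM. Among the receptors, NPR1 exceeded NPR2 in every sample, and its lowest level was 10.05 FPKM in the sham group and 9.34 FPKM in the DAC group, against highest levels of NPR2 of 6.89 and 7.001 FPKM. In mean level over the 6 samples, the NPPB row was higher than 95.2% of the genes tested, CORIN than 87.7% and MME than 37.4%.

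Genes around NPPA and NPPB on chromosome 6 were compared as neighbours of the locus. CLCN6, KIAA2013, PLOD1, MFN2 and MIIP were tested, and none of these 5 was a DEG, against 8.51% of all genes tested. CLCN6, a chloride transporter gene whose row ends 3462 bases before the NPPB row, was at 2.65, 2.62 and 2.30 FPKM in the sham samples and at 2.61, 2.58 and 2.81 FPKM in the DAC samples. Its log2 fold change was 0.059 (adjusted P = 0.890 from limma). KIAA2013, whose row starts 43289 bases past the other end of the NPPB row, had a log2 fold change of -0.38 (adjusted P = 0.593 from limma). MFN2, a gene of mitochondrial fusion, had one of -0.23 (adjusted P = 0.629 from limma). With single samples left out, KIAA2013 was a downregulated DEG without sham replicate 2 or DAC replicate 6, and MFN2 without sham replicate 2. MIIP and PLOD1 had log2 fold changes of -0.20 and 0.020.

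Downstream of the receptors, 15 genes of cGMP production, targets and removal were tested, of which 2 were upregulated DEGs and 1 was a downregulated DEG. Over all genes tested, 3.25% were upregulated and 5.27% downregulated DEGs. The median log2 fold change of the list was -0.053. GUCY1A1, a subunit of the soluble guanylyl cyclase that responds to nitric oxide and not to natriuretic peptides, was at 3.05, 3.86 and 2.77 FPKM in the sham samples and at 5.79, 4.68 and 4.51 FPKM in the DAC samples. Its groups did not overlap, as in 14.9% of the genes tested. The log2 fold change of GUCY1A1 was 0.51 (SE 0.14, adjusted P = 0.50 from limma). GUCY1B1 and GUCY1A2, other subunits of that cyclase, had log2 fold changes of 0.033 and -0.092 and were not DEGs. PDE5A, a phosphodiesterase specific for cGMP, was at 2.10, 1.55 and 2.09 FPKM in the sham samples and at 2.61, 2.81 and 2.50 FPKM in the DAC samples.

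PDE5A rose by 0.33 on the log2 scale (SE 0.12, adjusted P = 0.561 from limma). PDE2A, a phosphodiesterase that cGMP stimulates, fell by 0.36 on the log2 scale (SE 0.13, adjusted P = 0.558 from limma). PDE2A was at 8.04, 7.39 and 9.88 FPKM in the sham samples and at 6.61, 5.66 and 6.72 FPKM in the DAC samples. PDE5A was not a DEG without sham replicate 2, DAC replicate 4 or DAC replicate 5, with log2 fold changes of 0.23, 0.33 and 0.29. PDE2A was not a DEG without sham replicate 1, sham replicate 3 or DAC replicate 5, with log2 fold changes of -0.39, -0.25 and -0.29, nor with the variance of each gene on its own, at -0.36. PRKG1, the cGMP-dependent protein kinase, had a log2 fold change of -0.096 (adjusted P = 0.829 from limma). PDE3A, which cGMP inhibits, was the most abundant phosphodiesterase of the list at 104 to 115 FPKM in the sham samples and 101 to 112 FPKM in the DAC samples.

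Of 4 tested genes for other steps of processing, storage and clearance, none was a DEG, against 8.51% of all genes tested. The 4 included PCSK6, the protease that activates corin, with a log2 fold change of -0.12 (adjusted P = 0.920 from limma). PAM, an enzyme of the atrial secretory granule, was another, with 0.13 (adjusted P = 0.805 from limma). The median log2 fold change of 19 transcription factors and cofactors known to act on NPPA and NPPB was 0.0077. Of the 19, 1 was a DEG, against 8.51% of all genes tested. That gene was MEF2A, a factor of muscle genes, at 30.3, 30.2 and 28.8 FPKM in the sham samples and at 40.7, 33.3 and 36.2 FPKM in the DAC samples, a log2 fold change of 0.29 (SE 0.11, adjusted P = 0.563 from limma). With single samples left out, MEF2A remained a DEG only without DAC replicate 5, and its log2 fold change without any other sample was between 0.22 and 0.30. The cardiac factors GATA4, NKX2-5 and TBX5 had log2 fold changes of -0.17, -0.28 and 0.00063, and none was a DEG.

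The NPPB row was set beside other genes of the hypertrophy and fetal programme. Of these, 9 were tested and 1 was a DEG, against 8.51% of all genes tested. RCAN1, an inhibitor and target of calcineurin, was at 13.7, 14.4 and 11.6 FPKM in the sham samples and at 58.8, 18.9 and 45.0 FPKM in the DAC samples. RCAN1 rose by 1.42 on the log2 scale (SE 0.38, adjusted P = 0.488 from limma). DAC replicate 5, the middle of the DAC samples for the NPPB row, was the lowest of them for RCAN1. ACTA1, the skeletal muscle actin of the fetal programme, was between 1822 and 2278 FPKM in the sham samples and between 1518 and 2405 FPKM in the DAC samples, a log2 fold change of -0.13 (adjusted P = 0.870 from limma). ANKRD1, a stretch-responsive protein gene, had a log2 fold change of -0.086 (adjusted P = 0.929 from limma). The row named MYH7 was at 1873 to 1935 FPKM in the sham samples and 1781 to 1927 FPKM in the DAC samples, but the gene table used here pairs its identifier with MYH6, so which myosin heavy chain it counts is uncertain. Of 5 tested genes for other circulating heart failure markers, none was a DEG, against 8.51% of all genes tested. The log2 fold changes of these 5 were between -0.32 for APLN and 0.30 for ADM.

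**Figure D5:**
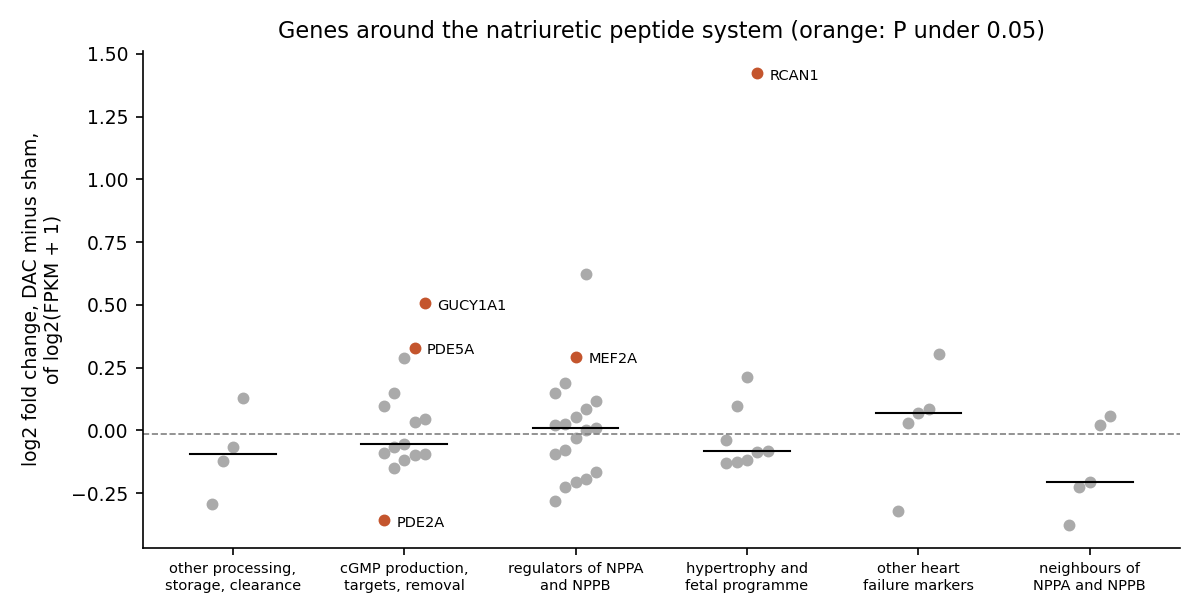
Log2 fold change (DAC minus sham) of the tested genes in 6 lists around the natriuretic peptide system, 1 point per gene, with DEGs in orange, the list median as a black bar and the median of all genes tested as a dashed line. Few genes pass the threshold: GUCY1A1, PDE5A, MEF2A and RCAN1 above the line and PDE2A below it.

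The genes whose log2(FPKM + 1) most resembled each member over the 6 samples were found among tested genes with a mean of at least 5 FPKM. For the NPPB row these were MPDU1, PSMA3 and FAHD1, each with Pearson's r of 0.96 and a log2 fold change between 0.25 and 0.27. For CORIN they were LIMS2, MRPL57 and SH3RF3 (r of 0.97 to 0.98), and for FURIN they were CLCN4, VPS51 and SPG7 (r of 0.99 each). For MME they were ZBTB16, PWWP3A and RAVER1 (r of 0.97 each), and ZBTB16 was at 51.8 FPKM in DAC replicate 6 and between 70.5 and 85.5 FPKM in the other samples. Among those most like NPR1 were UBB and ABLIM3 (r of 0.99 and 0.98), among those most like NPR2 were CXCL12 and UBE2S (r of 0.99 and 0.97), and those most like NPR3 were TLN1, GADD45A and MFAP5 (r of 0.98 to 0.995).

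The last of these, MFAP5, a microfibril gene, was at 45.6 FPKM in DAC replicate 6 and between 13.8 and 26.8 FPKM in the other samples, the same order of high and low as NPR3 in the DAC group. With 6 samples, between 11 and 50 of 11028 genes had an r over 0.95 with a given member, so these likenesses are a description of 6 libraries.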

How the data were processed

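RNA of ventricular myocardium (3 µg per library) was sequenced from 3 sham and 3 DAC minipigs. The authors deposited 1 table of FPKM, with a column per minipig and no pooling. Per the labels, reads were aligned with HISAT2 to susScr11, and the version, the program that made the FPKM and the annotation are not given in the sources used here. The lowest maximum over the samples of any listed gene was 0.500 FPKM. Read depth is unknown: of 2903 genes with low values, at most 4 shared a log2 ratio between 2 samples, so no whole-read steps were seen. The precision rests on the spread between libraries, which limma moderated with a trend over all genes tested.

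The 11029 genes that reached 1 FPKM in 3 or more samples were compared as log2(FPKM + 1) with limma 3.58.1 in R 4.3.3, using its mean-variance trend, and P was adjusted by the Benjamini-Hochberg method. DEGs have an unadjusted P under 0.05. A permutation test of 3 against 3 cannot give a two-sided P under 0.1. Symbols came from the table, and 519 rows without one were named through their gene identifiers. Of 10538 symbols also in RefSeq (Sscrofa11.1), 10535 lie at an overlapping position. No sequence of these genes was at hand, and none is shown. The steps were tested on simulated data. Plots were drawn with matplotlib 3.10.9 (Python 3.11.15).

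The members and lists were chosen with earlier results of these data known. The text names all members, neighbours of the locus, up to 4 DEGs in each direction from each other list, and the 3 genes most like each member. Genes outside that rule are named as markers or as textbook members of a list, or were chosen after their values were seen, and a few genes that the rule names are not reported here. Results were recomputed with 2 other filters (none, or a minimum of 5 FPKM), 3 other scalings, a pseudocount of 0.1, 2 other variance models and each sample left out. The labels name no batch.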

Additional observations from a re-analysis of the deposited data

How the results depend on the processing

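The NPPB row was an upregulated DEG in all 14 alternatives (adjusted P between 0.282 and 0.774 from limma), with a log2 fold change of 1.07 to 1.79 when single samples were left out. CORIN (-0.55 to -0.17) and MME (-0.44 to -0.095) kept their direction and stayed outside the threshold with each sample left out and in the other settings run, and MME was removed by the minimum of 5 FPKM. FURIN (-0.54 to -0.24 with samples left out) passed the threshold with sample weights (-0.41), and NPR1 was between -0.70 and -0.27. NPR2, near 0 throughout, changed sign with mitochondrially encoded genes left out (0.0034) and with single samples left out (-0.12 to 0.058). NPR3 changed sign with sample weights (0.11) and with single samples left out (-0.74 to 0.27, lowest without DAC replicate 6), and the log2 ratio of NPR3 to NPR1 moved from 0.36 to between -0.16 and 0.65. The number of DEGs among the 7 genes, 1, was 2 with sample weights and between 1 and 2 with single samples left out. Over all genes, 939 DEGs became 579 with a minimum of 5 FPKM, which tested 6271 genes, and 600 to 1029 with single samples left out, lowest without sham replicate 1. Among the neighbours, whose settings were added after seeing the data, PLOD1 (-0.10 to 0.16, negative without sham replicate 2, at -0.098, or DAC replicate 6) changed sign. The ratio of NPPB to NPPA and the comparison of NPPA and NPPC were not run, since these 2 genes have no row. No paired analysis was run, because different minipigs were assigned at random to the groups. The cause of these shifts was not tested.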
